A study of Mus musculus with 4 samples.

Results

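Mouse gonads were compared between E13.5 and E14.5 (E, embryonic day), with 1 library of total RNA for each time point. Embryos came from wild-type C57BL/6J mice. Each library held XX and XY gonads pooled in equal numbers, freed of the mesonephros, the transient kidney beside the gonad. The 2 time points are the last of a daily series of 4 libraries that begins at E11.5. The E11.5 library (genital ridge with mesonephros) and the E12.5 library (gonad alone) are used below for context only. A pool averages testis and ovary, so that, Y-linked and Xist transcripts aside, no value below can be assigned to one sex. Ribosomal RNA was depleted, all remaining RNA was tailed, and reads were counted once per unique molecular identifier (UMI), so that long and short RNAs stand in the same table. Genes with 10 or more counts in either library were kept, which gave 19351 of the 40999 listed features, and the other 21648 were not compared.

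The fates of germ cells diverge around these time points. In the fetal ovary, germ cells stop dividing, express Stra8 and enter meiotic prophase, in which homologous chromosomes pair along the synaptonemal complex and exchange DNA. In the fetal testis, Sertoli cells enclose the germ cells in cords and keep them out of meiosis, and these cells arrest and begin to make the piRNA machinery that silences transposons. Fetal Leydig cells between the cords produce androgen precursors. In both sexes the pluripotency genes that germ cells carried from their origin in the epiblast are shut off.

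The E13.5 library held 31752562 counts and the E14.5 library 31526303. Ribosomal RNA, nuclear and mitochondrial together, went from 8.72% to 48.9% of the counts, and protein-coding genes from 81.7% to 43.0%. The counts were therefore scaled by the trimmed mean of M values (TMM), under which 1 count at E14.5 stands for 2.13 counts at E13.5. Counts are given below as deposited, in the order E13.5, E14.5 where there are 2 and in the order of the series where there are 4. Levels are given as scaled CPM, counts per 1000000 scaled counts, on the E13.5 scale, and fold changes as log2 of E14.5 over E13.5. Each fold change carries, in brackets after its value, an exact Clopper-Pearson 95% interval that covers counting error only. With 1 library a side there is no replicate check, no p-value is given, and a difference is one between 2 libraries.

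A feature was counted as up-regulated or down-regulated when its scaled count moved at least 2-fold and its interval lay past no change. Of all features kept, 1179 (6.09%) were up-regulated and 272 (1.41%) down-regulated. Among the 15170 protein-coding genes, 610 (4.02%) were up-regulated and 164 (1.08%) down-regulated, and these shares are the background for the gene lists below. Of all 1451 calls 139 rest on a library with 3 or fewer counts, which was put at 3. The up-regulated share of all calls was 81.3%. Scaling by total counts lowered the median gene by 1.08 on the log2 scale and turned the split to 313 up-regulated and 11385 down-regulated features (2.68% up-regulated). Total counts without ribosomal RNA gave 876 and 537 (62.0% up-regulated). Changes are given relative to the TMM scale, and a rise smaller than 1.08 was a fall in the share of all counts. The middle 90% of protein-coding genes lay between -0.54 and 0.92. Housekeeping genes sat at the centre of that range, with Gapdh at -0.01, Actb at -0.01 and a median of -0.004 over 15 genes.

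**Figure D1:**
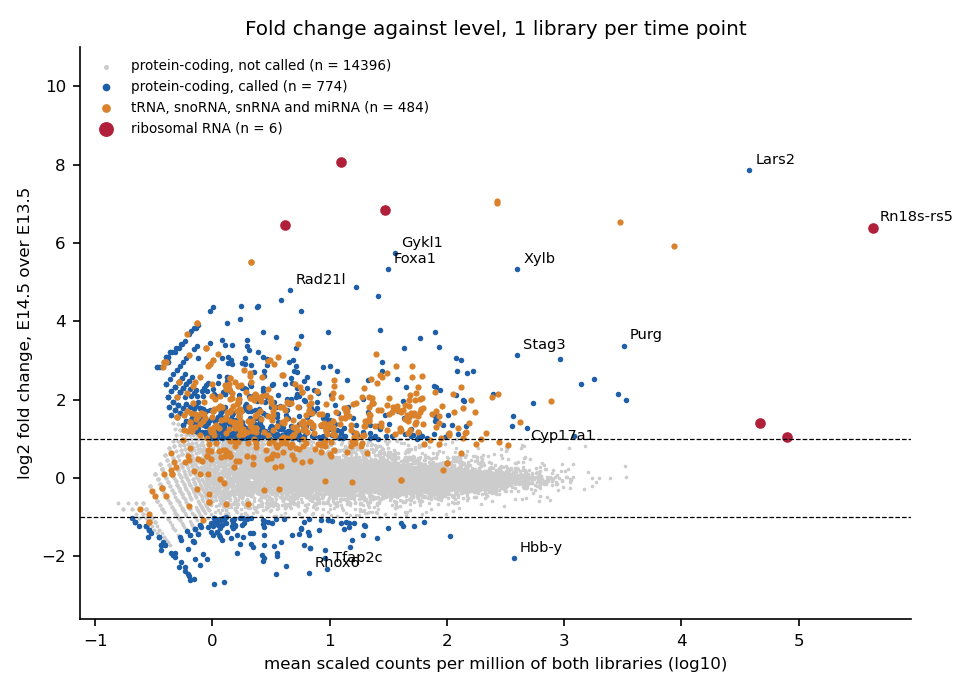
Log2 fold change of E14.5 over E13.5 (vertical axis) against the mean scaled CPM of both libraries (horizontal axis, log10), 1 point per feature. Dashed lines mark a 2-fold change. The 14396 protein-coding genes that were not called form the band around 0, 18S ribosomal RNA (Rn18s-rs5) and Lars2 lie highest on the right, and the tRNAs, snoRNAs, snRNAs and miRNAs lie mostly above 0.

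Mature microRNAs (miRNAs) bind messenger RNAs through their seed, bases 2 to 8, and miRNAs with the same seed can share targets. Of 1851 listed mature miRNAs only 50 were kept, 30 were up-regulated and none was down-regulated, with a median of 1.503. RefSeq gave a sequence (GRCm38.p6) for 46 of the 50, with 39 different seeds. The sequences below, 5′ to 3′ with the seed in capitals, are the 3 seed groups that held more than one kept miRNA, then the 2 miRNAs with the most counts at E14.5 and miR-202-5p, which the study followed in the gonad.
miR-125a-5p: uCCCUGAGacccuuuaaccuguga
miR-125b-5p: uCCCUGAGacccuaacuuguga
miR-351-5p: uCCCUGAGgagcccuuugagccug
let-7c-5p: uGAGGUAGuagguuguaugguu
let-7e-5p: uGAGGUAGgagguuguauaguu
let-7a-5p: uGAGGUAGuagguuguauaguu
let-7b-5p: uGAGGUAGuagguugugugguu
let-7f-5p: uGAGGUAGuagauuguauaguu
miR-16-5p: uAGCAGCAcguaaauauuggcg
miR-15b-5p: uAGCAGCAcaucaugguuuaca
miR-6236: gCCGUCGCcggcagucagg
miR-6240: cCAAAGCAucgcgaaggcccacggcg
miR-202-5p: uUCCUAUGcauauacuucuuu

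All 3 members of the miR-125 seed group were up-regulated. Its 3 members held 226, 173, 126 and 283 counts over the 4 libraries, with a summed fold change of 2.26 (1.95 to 2.57). Within it, miR-125a-5p had 66 and 142 counts (2.20, 1.77 to 2.64), miR-125b-5p had 35 and 102 counts (2.63, 2.07 to 3.23) and miR-351-5p had 25 and 39 counts (1.73, 0.97 to 2.52). The let-7 group, known for its build-up as tissues differentiate, changed less. Its 5 members summed to 257 and 230 counts, a fold change of 0.93 (0.67 to 1.19), and 3 of 5 were up-regulated. The interval of the let-7 sum lies wholly below that of the miR-125 sum. miR-16-5p and miR-15b-5p summed to 26 and 42 counts (1.78, 1.04 to 2.55). miR-202-5p, a gonadal miRNA, was absent at E11.5 and had 24, 22 and 47 counts in the later libraries (2.18, 1.43 to 2.99).

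The mature miRNAs with the most counts at E14.5 rose further. miR-6236 (chr9:110281353-110281371, plus strand, mm10) had 15354, 2133, 2025 and 88495 counts from E11.5 to E14.5, a fold change of 6.54 (6.48 to 6.61). miR-6240 (chr5:114851973-114851998, plus strand) had 2137, 147, 125 and 7894 counts (7.07, 6.82 to 7.34). Both were low at E12.5 and E13.5 and high at E11.5 and E14.5, the order that 18S ribosomal RNA also followed (below), and whether their reads come from ribosomal RNA was not tested. miR-6538, next in abundance at E14.5, had 2768 and 1702 counts (0.39, 0.30 to 0.48) and was not called. miR-2137 had no count at E13.5 and 64 at E14.5, which is 45.5-fold higher when the empty library is put at 3 counts. Its counting interval, taken from the counts before that floor, begins lower, at 5.17 on the log2 scale. Apart from miR-6236, miR-6240, miR-6538, miR-5126 and miR-5099, no mature miRNA had more than 142 counts in either library, so that most of these values rest on few counts.

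Genes of meiotic entry and of meiotic cohesin, the ring that holds sister chromatids, were up-regulated in 5 of 10 members and down-regulated in none, with 3 values below 0. The median of the list was 0.76, against 0.005 over all protein-coding genes. Rad21l, a kleisin subunit found only in meiotic cohesin, had 3, 1, 10 and 131 counts from E11.5 to E14.5, a fold change of 4.79 (3.88 to 5.90). Stag3, its partner subunit, had 2863, 1393, 2581 and 10590 counts (3.13, 3.07 to 3.19), and it was already abundant at E11.5. The meiosis initiator Meiosin, listed as Gm4969, had 394 and 472 counts (1.35, 1.16 to 1.55). Its partner Stra8, the retinoic acid target that starts meiosis, had no count at E11.5 and 3 at E12.5, then 430 and 272 counts (0.43, 0.21 to 0.65), so that most of its appearance lay before E13.5. Meioc (listed as Gm1564) and Tex15, both needed in meiotic prophase, rose by 1.08 (0.90 to 1.26) and 1.13 (1.05 to 1.21). Rec8, the other meiotic kleisin, had 1074 and 374 counts (-0.43, -0.60 to -0.26) and was not called. Summed germ cell markers (Ddx4, Dazl, Pou5f1, Sycp3 and Mael) stood at 412 and 374 scaled CPM. In pooled tissue, a change in the number of germ cells and a change in RNA per cell cannot be told apart.

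The synaptonemal complex is the protein zip between paired chromosomes. Of its 12 kept members 6 were up-regulated and none was down-regulated (median 0.76). The axis proteins Sycp2 and Sycp3 had 245 and 464 counts (2.01, 1.79 to 2.24) and 202 and 331 counts (1.80, 1.55 to 2.06). Sycp1, the transverse filament, had 14, 121, 698 and 684 counts over the 4 libraries (1.06, 0.91 to 1.22), and Tex12, of the central element, had 0, 23, 87 and 123 (1.59, 1.18 to 2.004). Syce3 rose from 11 to 18 counts (1.80, 0.64 to 3.03), and Syce1 had 234 and 158 counts (0.53, 0.22 to 0.82) and was not called. In scaled CPM, Sycp1, Sycp2, Sycp3 and Tex12 were each higher at every time point than at the one before.

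Promoters of this list held the palindrome CACGTG, the E-box bound by MAX and its partners, in 6 of 12 genes, within the 300 bases from 250 before to 50 after the start. It was found in 7.24% of all 27025 RefSeq promoters and in 9.81% of the 11218 promoters of kept protein-coding genes. The same letters were in 6 of 16 piRNA pathway promoters, 2 of 6 meiotic entry promoters, 1 of 17 recombination promoters and 1 of 15 pluripotency promoters with a sequence, and in 41 of 419 (9.79%) promoters of all up-regulated protein-coding genes. Among the other letters searched on both strands, GGCGGGA was in 7 of 17 recombination promoters against 20.3% of kept protein-coding ones, and in 2 of 12 synaptonemal, 2 of 16 piRNA and 1 of 6 meiotic entry promoters. CCCCTCAG was in 2 of 12 synaptonemal and 3 of 16 piRNA promoters, against 2.65%. GGCGGGAA, which contains GGCGGGA, was in 4 of 17 recombination and 2 of 12 synaptonemal promoters, against 3.97%. TCACGTGA, which contains the palindrome, was in none of the meiosis or piRNA promoters, against 1.74%. A match is a description of the window, and binding was not measured. The 120 bases upstream of the start are shown for 3 of the up-regulated members, with the palindrome in capitals, on the strand of the gene (RefSeq, GRCm38.p6).
Sycp1: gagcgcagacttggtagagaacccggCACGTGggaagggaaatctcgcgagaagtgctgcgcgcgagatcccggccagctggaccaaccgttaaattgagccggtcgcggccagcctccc
Sycp3: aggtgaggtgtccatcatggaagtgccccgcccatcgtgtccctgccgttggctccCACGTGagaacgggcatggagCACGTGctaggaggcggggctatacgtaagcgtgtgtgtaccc
Tex12: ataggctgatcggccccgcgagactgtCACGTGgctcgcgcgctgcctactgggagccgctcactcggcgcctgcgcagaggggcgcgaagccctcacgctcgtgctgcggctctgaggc
These windows lie at chr3:102936101-102936220 (minus strand), chr10:88459467-88459586 (plus strand) and chr9:50561269-50561388 (minus strand). Sycp3 held it at 64 and 43 bases before the start, Sycp1 at 94 and Tex12 at 93.

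Recombination genes were up-regulated in 10 of 23 members and down-regulated in none (median 0.67), and the rise was uneven along the pathway. Spo11, which cuts DNA, and Dmc1, which carries out strand exchange, had 119 and 89 counts (0.67, 0.26 to 1.08) and 383 and 250 counts (0.48, 0.24 to 0.71) and were not called. Prdm9, which marks the sites of cutting, rose from 102 to 185 counts (1.95, 1.59 to 2.31). Larger rises were in cofactors of cutting, Mei1 from 15 to 66 (3.22, 2.40 to 4.15) and Ankrd31 from 40 to 136 counts (2.85, 2.34 to 3.40). Meiob and Spata22, which act as a complex on single-stranded DNA, rose from 13 to 47 (2.94, 2.04 to 3.96) and from 10 to 54 (3.51, 2.54 to 4.66). Msh4, a crossover factor, had 193 and 102 counts (0.17, -0.19 to 0.53). Of the genes with large rises, Rad21l, Mei1, Meiob and Spata22 had at most 3 counts at E11.5 and E12.5.

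**Figure D2:**
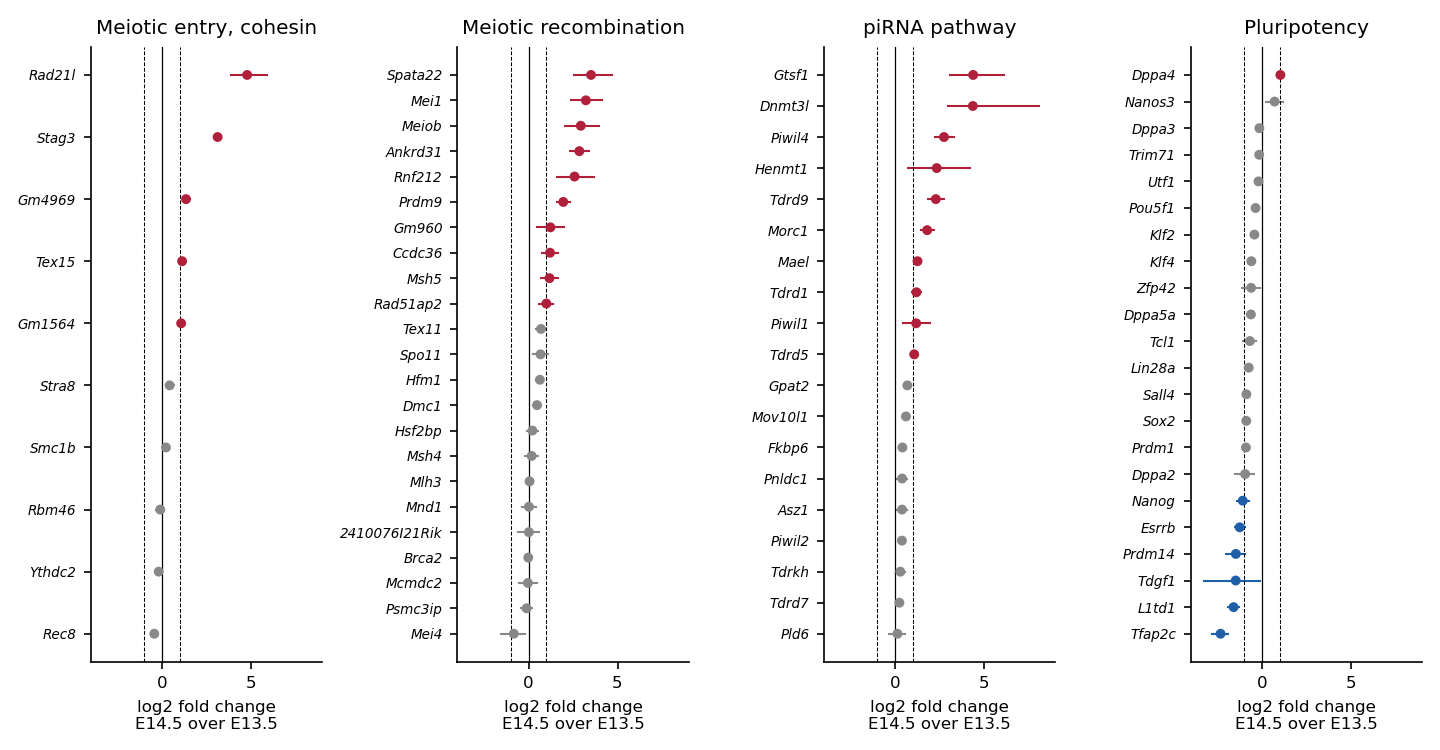
Log2 fold change (point) with its 95% counting interval (line) for each kept member of 4 germ cell lists, with up-regulated genes in red, down-regulated in blue and others in grey. No member of the meiosis and piRNA lists was down-regulated, and 20 of the 22 pluripotency genes lie below 0.

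Pluripotency and germ cell specification genes moved the other way. Of 22 members 6 were down-regulated and 1, Dppa4 (1.05, 0.86 to 1.23), was up-regulated, 20 of 22 values were below 0 and the median was -0.70. Tfap2c, a specification factor of primordial germ cells, had 101, 470, 499 and 47 counts from E11.5 to E14.5 (-2.31, -2.78 to -1.88). Prdm14, which acts with it, had 31, 200, 223 and 38 (-1.46, -1.998 to -0.96). L1td1 fell from 734 to 115 counts (-1.58, -1.88 to -1.30), Tdgf1, a Nodal co-receptor, from 30 to 5 (-1.46, -3.22 to -0.11) and Nanog from 416 to 93 (-1.07, -1.41 to -0.74). Other core factors were not called, with Sox2 at -0.87 (-1.08 to -0.66) and Pou5f1 at -0.35 (-0.51 to -0.19). Utf1 had 1279 and 528 counts (-0.18, -0.33 to -0.04). In scaled CPM, the sum over the list went from 732 at E12.5 to 632 at E13.5 and 436 at E14.5.

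Of 19 kept genes of germ cell identity and RNA binding 7 were up-regulated and none was down-regulated, with a median of 0.52. The 7 include Mael, Gtsf1, Nanos2, Tex101 and Taf7l, given with other lists below, and Sycp3 above. RNA-binding proteins that mark the germ line in both sexes were among the 12 not called. Ddx4 had 2960 and 1176 counts (-0.24, -0.34 to -0.14), Dazl had 8230 and 3061 counts (-0.34, -0.40 to -0.28) and Dnd1 had 538 and 331 counts (0.39, 0.19 to 0.59).

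The piRNA pathway, in which PIWI proteins and Tudor-domain scaffolds load small RNAs against transposons, had a shift of the whole list. All 19 kept members had a fold change above 0, 10 were up-regulated and the median was 1.07 (-0.01 when total counts set the scale). Gtsf1, a PIWI cofactor, had 0, 3, 5 and 50 counts (4.38, 3.10 to 6.10). Piwil4, the nuclear PIWI protein of fetal male germ cells, had 3, 21, 41 and 129 counts (2.74, 2.23 to 3.29). Piwil2 had 1061 and 648 counts (0.38, 0.24 to 0.52) and Piwil1 had 31 and 33 counts (1.18, 0.43 to 1.94), so that only the former was not called. Tdrd1 and Mael rose by 1.20 (0.94 to 1.46) and 1.26 (1.08 to 1.43), and Henmt1, which methylates piRNA ends, went from 5 to 12 counts (2.33, 0.75 to 4.21). Dnmt3l, the cofactor of de novo DNA methylation, had 0, 0, 2 and 29 counts, a ratio of 29.2 with a counting interval from 7.82 to 267. Of the 9 kept genes of DNA methylation it was the only one called, and Dnmt1, Dnmt3a and Dnmt3b stood at -0.25, -0.02 and -0.24.

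Nanos2, the RNA-binding protein that drives the male germ cell fate, was absent at E11.5 and E12.5 and had 12 and 75 counts (3.72, 2.85 to 4.75). Tex101, a germ cell surface protein, had 1, 16, 59 and 165 counts (2.57, 2.14 to 3.03). Nodal and its feedback inhibitor Lefty1, which are active in XY germ cells ahead of this step, were not called. Nodal had 17, 136, 115 and 33 counts (-0.71, -1.31 to -0.14) and Lefty1 had 14, 228, 354 and 107 counts (-0.63, -0.96 to -0.32). Of the 15 kept genes of this list 4 were up-regulated and 2 were down-regulated, Tdgf1 among them. Outside the list, Foxh1, a transcription factor of the Nodal pathway, fell from 333 to 45 counts (-1.79, -2.28 to -1.34).

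Of 20 oocyte genes 11 were kept. Figla, needed to form follicles, was the only one called, with 1 and 11 counts, a ratio of 21.1 with a counting interval from 3.41 to 1009. Sohlh1 had 16 and 12 counts (0.68, -0.53 to 1.85) and Sohlh2 had 865 and 244 counts (-0.73, -0.94 to -0.53).

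X-linked germline genes were up-regulated in 10 of 18 members with none down-regulated (median 1.55). Nxf2, an RNA export factor, had 30 and 140 counts (3.31, 2.74 to 3.93), and Taf7l, a germ cell TFIID subunit, had 135 and 359 counts (2.502, 2.21 to 2.80). AV320801, Pet2 and Gm6880 rose from 8 to 32, 9 to 36 and 10 to 36 counts. The Rhox cluster, homeobox genes that are also on the X chromosome, went down instead. Of 9 kept Rhox genes 4 were down-regulated and none up-regulated, with Rhox6 from 356 to 31 counts (-2.42, -3.01 to -1.90), Rhox9 from 450 to 59 (-1.84, -2.26 to -1.45) and Rhox5 from 704 to 149 (-1.15, -1.41 to -0.89). Rhox2a was at the threshold (-1.005, -2.01 to -0.13), and its reads may be shared with near-identical Rhox2 copies. Rhox1 had 90 and 51 counts (0.27, -0.25 to 0.78). On the Y chromosome Usp9y rose from 14 to 50 counts (2.92, 2.05 to 3.90), while Ddx3y (0.07), Uty (0.13) and Kdm5d (0.10) stayed within 0.13 of 0. Xist, transcribed from the inactive X chromosome of XX cells, had 36692 and 11575 counts (-0.57, -0.60 to -0.54).

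**Figure D3:**
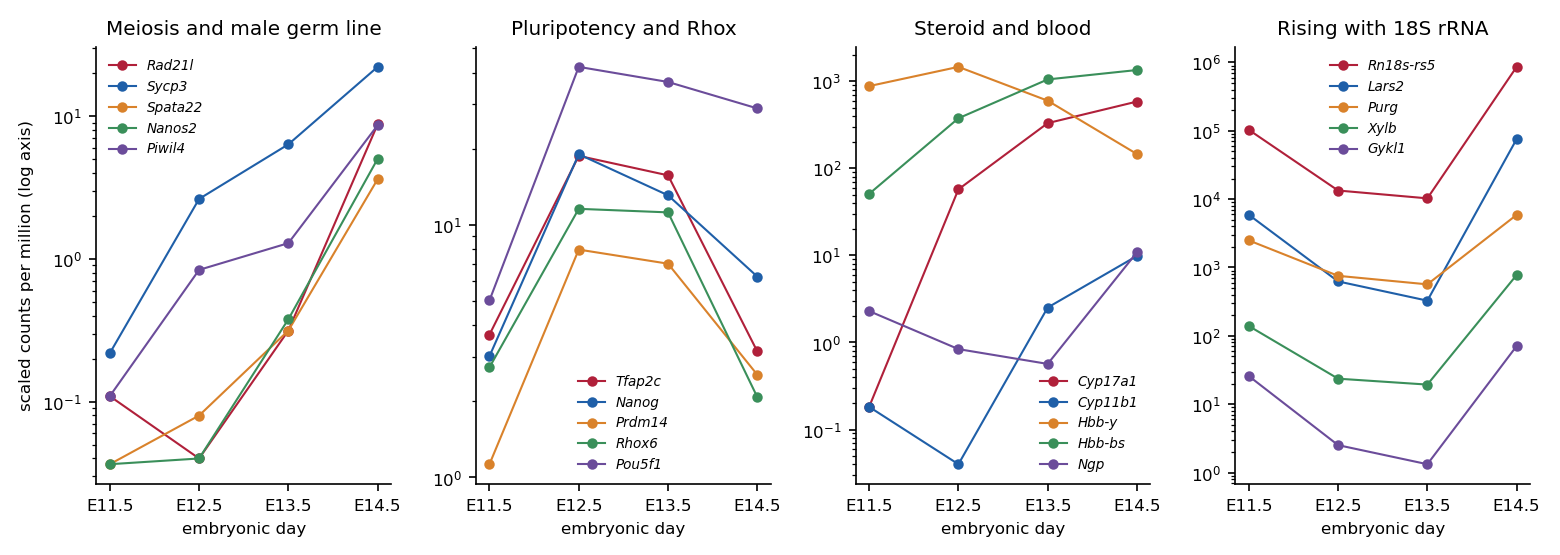
Scaled CPM (log axis) of 20 named genes in the 4 libraries, 1 point per library, with values of 0 drawn at the level of 1 count. Meiosis and male germ cell genes end highest at E14.5, pluripotency genes and Rhox6 peak at E12.5 or E13.5, Hbb-y falls from E12.5 on while Hbb-bs rises throughout, and the genes in the last panel are high at E11.5 and E14.5.

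Supporting cell genes changed little. Of 28 Sertoli cell genes 1 was up-regulated, Hsd17b1 (198 and 240 counts, 1.37, 1.09 to 1.65), which encodes an enzyme that fetal Sertoli cells use to complete androgen synthesis. Sox9 had 3587 and 1490 counts (-0.18, -0.26 to -0.09), Amh, the hormone that removes the female duct, had 10299 and 5683 counts (0.23, 0.19 to 0.28), and Dhh, the ligand read by Leydig cells, had 1654 and 852 counts (0.13, 0.01 to 0.25). The median of the list was 0.22. Pregranulosa genes had a median of -0.26 with 18 of 23 values below 0. The only one called was Bmp2, a ligand of the ovarian supporting cells, from 1899 to 378 counts (-1.24, -1.40 to -1.08). Foxl2 had 1092 and 826 counts (0.69, 0.56 to 0.82), Wnt4 2776 and 1152 counts (-0.18, -0.28 to -0.08), Rspo1 835 and 405 counts (0.05, -0.13 to 0.22) and Fst 2420 and 814 counts (-0.48, -0.60 to -0.36). Foxl2 and Bmp2 thus differed in direction, with intervals that do not meet.

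Fetal Leydig genes were higher at E14.5 in sum, but few passed the rule. The summed level of the list went from 2271 to 3122 scaled CPM, 17 of 23 values were above 0 and the median was 0.36. Cyp17a1, which makes androgens from progestogens, had 5, 1437, 10503 and 8720 counts from E11.5 to E14.5 (0.82, 0.78 to 0.86). Cyp11a1, which makes the first steroid from cholesterol, had 7439 and 6026 counts (0.79, 0.74 to 0.84), Hsd3b1 had 5171 and 3636 counts (0.58, 0.52 to 0.65) and Insl3, the peptide of testis descent, had 280 and 247 counts (0.91, 0.66 to 1.16). All 4 intervals lay above 0 and below or across 2-fold. Agtr2, the angiotensin receptor, was up-regulated (1588, 229, 200 and 536 counts, 2.51, 2.28 to 2.76), and its scaled level was highest at E11.5. Hsd3b6 was down-regulated from 123 to 24 counts (-1.26, -1.96 to -0.63), although its sequence is close to Hsd3b1 and reads could be split between them. Adrenal-type enzymes, which fetal Leydig cells also express, were up-regulated for Cyp11b1, from 80 to 147 counts (1.97, 1.57 to 2.38), and Cyp21a1, from 45 to 65 (1.62, 1.05 to 2.20), with Mc2r, the receptor of adrenal cells, at -0.16 (-0.64 to 0.29).

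Cholesterol genes were mostly not called. Of 20 genes of cholesterol synthesis and uptake 1 was up-regulated, Srebf2, the master transcription factor of the pathway, from 5853 to 8263 counts (1.59, 1.54 to 1.64). Known target genes of it stayed near 0, with Hmgcs1 at 0.15 and Sqle at 0.10. Hedgehog genes (13 kept) and retinoic acid genes (15 kept) had no call in either direction. Ptch1 was at 0.15, the retinoic acid synthesis enzymes Aldh1a1 and Aldh1a2 at 0.41 and -0.14, and Cyp26b1, which degrades retinoic acid in the testis, at -0.30.

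Interstitial matrix genes lay above 0 throughout. All 25 kept genes of fibrillar collagen and interstitial matrix were above 0, 5 were up-regulated and the median was 0.56, with the summed level going from 7538 to 11739 scaled CPM. Col1a1 had 24798 and 24489 counts (1.07, 1.05 to 1.10), Col3a1 34676 and 28596 counts (0.81, 0.79 to 0.84) and Col1a2 25612 and 20584 counts (0.78, 0.75 to 0.80). Elastin (Eln) and Lox, the enzyme that crosslinks both fibres, rose by 1.11 (1.02 to 1.20) and 1.09 (0.97 to 1.21). The small proteoglycans of collagen fibrils rose further, with Dcn from 2667 to 3118 counts (1.32, 1.24 to 1.39), Lum from 701 to 954 (1.54, 1.39 to 1.68) and Ogn from 218 to 305 (1.58, 1.32 to 1.83). Basement membrane genes, which wrap the cords, had no call among 21 members (median 0.14), with Col4a1 at 0.23 and Col4a2 at 0.18. Of 19 genes of gonadal stroma 4 were up-regulated, Dcn, Lum, Ogn and the transcription factor Osr1, and the median of the list was 0.37. The stroma list shares members with the matrix list, Lum among them, so that their calls are not separate. Osr1 had 615, 111, 172 and 165 counts from E11.5 to E14.5 (1.03, 0.71 to 1.35). The stromal transcription factors Tcf21 and Nr2f2 were not called, at 0.23 and 0.21, and the smooth muscle genes Acta2 and Myh11 stood at 0.42 and 0.58, not called.

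**Figure D4:**
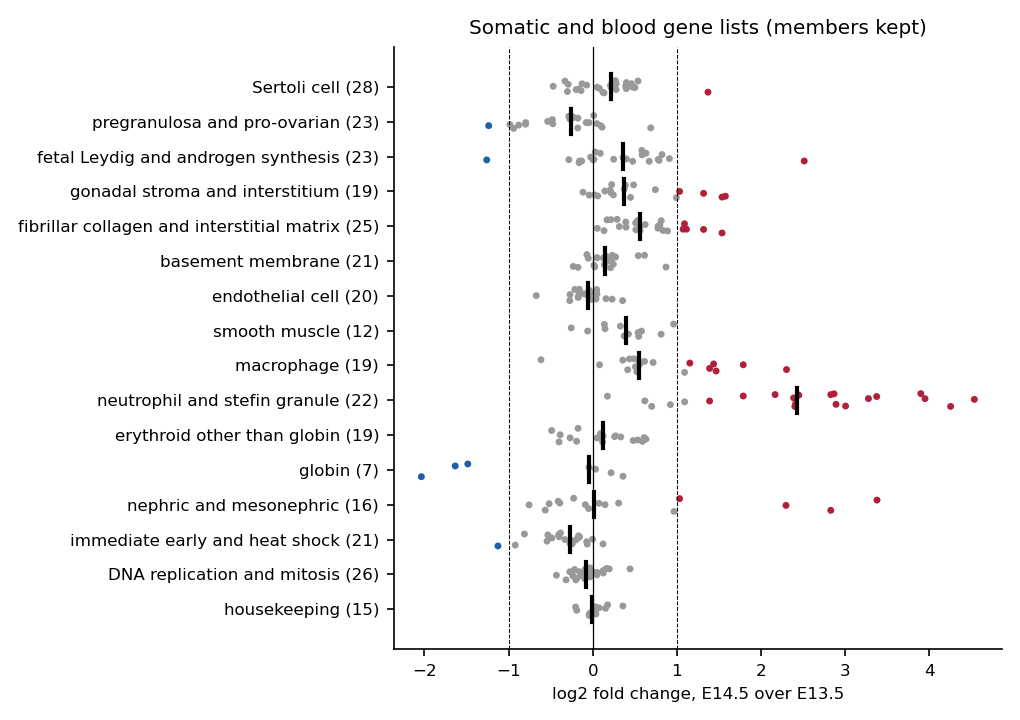
Log2 fold change of each kept member (points) of 16 somatic, blood and control lists, with the list median as a black bar, up-regulated genes in red and down-regulated in blue. The neutrophil and stefin list lies to the right of 0 throughout with a median of 2.43, the 3 embryonic globins lie at the left, and the housekeeping list is centred on 0.

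Blood genes showed 2 separate changes. Embryonic globins, made by primitive erythroid cells from the yolk sac, were down-regulated, with Hbb-y at 24191, 36693, 19013 and 2174 counts from E11.5 to E14.5 (-2.04, -2.10 to -1.97). Hbb-bh1 fell from 186 to 28 counts (-1.63, -2.27 to -1.06) and Hba-x from 4970 to 833 (-1.48, -1.59 to -1.38). Adult-type globins did not pass the rule, with Hbb-bs at 0.36, Hbb-bt at 0.22, Hba-a1 at -0.04 and Hba-a2 at 0.03, and reads of the near-identical pairs could be split. None of 19 other erythroid genes was called, and Alas2, the heme synthesis enzyme of red cells, was at 0.05 (-0.11 to 0.21).

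Neutrophil granule and stefin genes were up-regulated in 17 of 22 members, all 22 were above 0 and the median was 2.43. Ngp had 63, 21, 18 and 162 counts (4.25, 3.56 to 5.05), Ltf, lactoferrin, had 38, 19, 10 and 110 (4.53, 3.62 to 5.65), S100a9 135, 22, 77 and 264 (2.87, 2.498 to 3.25) and S100a8 114, 22, 92 and 194 (2.17, 1.80 to 2.54). Stfa2l1, one of the stefin protease inhibitors on chromosome 16, rose from 5 to 37 counts (3.95, 2.63 to 5.68), though its near-identical neighbours may share reads. The study places these stefins in a hub with the noncoding RNA LOC102639045, given below. The 6 defining neutrophil markers summed to 23.2, 7.35, 11.2 and 60.1 scaled CPM over the 4 libraries, with none at 0 in either library of the pair. Of these 6 markers, Mpo was not called, with 143 and 109 counts (0.70, 0.33 to 1.07). Fewer macrophage genes were called, with 6 of 19 members up-regulated, 18 of 19 values above 0 and a median of 0.56. Lyz2, which neutrophils also express, had 215, 43, 111 and 180 counts from E11.5 to E14.5 (1.79, 1.44 to 2.14). Ms4a7 went from 9 to 21 counts (2.30, 1.13 to 3.62). The receptor Csf1r was at 0.55 (0.29 to 0.80) and Cd68 at 0.08 (-0.24 to 0.40), neither of them called. The part of circulating or captured blood cells in these values was not tested.

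Endothelial genes had no call among 20 members (median -0.05), with Pecam1 at -0.27, Cdh5 at 0.05 and Kdr at -0.16. Nephric genes are a measure of the mesonephros left in the dissection. Pax2 had 1531 counts with the mesonephros at E11.5 and 73 and 36 counts (0.07, -0.55 to 0.67), and Pax8 366 and 116 counts (-0.56, -0.88 to -0.26). Cdh16, from 29 to 67 counts (2.30, 1.65 to 2.98), was up-regulated at a level far below its 700 counts at E11.5. The 4 mesonephros markers summed to 94.8, 26.8, 20.7 and 24.8 scaled CPM over the 4 libraries. Genes of DNA replication and mitosis (26 kept) had no call, with Mki67 at 0.06 and Top2a at -0.03. Cytosolic ribosomal proteins (84 kept) had no call either and a median of 0.03, and of 89 nuclear genes of oxidative phosphorylation 1, Cox7b2, was up-regulated, from 6 to 12 counts (2.08, 0.57 to 3.79). Immediate early and heat shock genes, which respond to handling of tissue, had 20 of 21 values below 0 and a median of -0.27. Egr3 was down-regulated (2783 and 598 counts, -1.13, -1.26 to -0.999), and Fos (-0.49, -0.52 to -0.45) and Jun (-0.16, -0.19 to -0.12) were not called.

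The largest rises among messenger RNAs formed another group. Lars2, mitochondrial leucyl-tRNA synthetase, had 162002, 15652, 10378 and 1125000 counts from E11.5 to E14.5 (7.85, 7.82 to 7.88). The 16 other mitochondrial aminoacyl-tRNA synthetases were not called, nor were the 20 cytosolic ones, with Aars2 at -0.13 and Eprs at -0.14. After Lars2 came Gykl1 at 708, 63, 42 and 1056 counts (5.74, 5.30 to 6.22), Foxa1 at 170, 26, 48 and 908 (5.33, 4.91 to 5.78), Xylb at 3823, 591, 614 and 11570 (5.33, 5.21 to 5.45) and 1700030F18Rik at 86, 12, 35 and 480 (4.86, 4.37 to 5.41). Il17re (4.63, 4.26 to 5.03), Rgs9 (3.77, 3.49 to 4.06), Amacr (3.74, 3.57 to 3.90), Doc2a (3.72, 3.26 to 4.23), Zfp109 (3.58, 3.39 to 3.76) and Purg (3.38, 3.35 to 3.40) were also among the 15 largest rises with at least 100 counts. Beside these, Rad21l, Gm884, Ngp and Ltf made up the 15.

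Most of this group was high at E11.5 too. Of the 15 largest rises 12 had a scaled level at E11.5 at least 2-fold above both E12.5 and E13.5, and Rad21l, Ltf and Gm884 did not. Over all 176 up-regulated protein-coding genes with at least 100 counts 42 had that shape, and 3 of 61 down-regulated ones did. The E13.5 level enters both the shape and the call, so up-regulated genes were favoured in advance. These shares therefore cannot be set against each other, and the share over all kept genes is not given here. The 18S ribosomal RNA gene Rn18s-rs5 had 2833632, 334505, 325792 and 12816977 counts (6.39, 6.38 to 6.39), in the same order. So did 3 lncRNAs, LOC102639045 (Gm15564 in RefSeq) with 53224, 4573, 2711 and 294680 (7.86, 7.80 to 7.91), 3930402G23Rik with 214, 32, 21 and 1018 (6.68, 6.07 to 7.39) and Gm5600 with 365, 19, 13 and 486 (6.30, 5.53 to 7.24). The part of ribosomal RNA fragments in these counts was not tested. None of the 15 spans held a listed small RNA on the same strand, and 6 of the 176 did.

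Short RNAs rose as a block. Of the 503 kept features with an exon length of up to 150 bases 356 (70.8%) were up-regulated and none was down-regulated, with a median of 1.41. Of the 18848 longer ones 823 (4.37%) were up-regulated and 272 (1.44%) down-regulated, with a median of -0.001. The step lay between 150 and 250 bases, where 7 of 45 features were up-regulated (median 0.53), and between 250 and 400 bases it was 11 of 158 (median 0.09). Protein-coding genes between 250 and 400 bases had a median of 0.17. Abundant RNAs just above the step moved together, with Rn7s2, the RNA of the signal recognition particle, at 0.48, Rn7sk at 0.496, Rmrp at 0.49 and Rpph1, the RNA of RNase P, at 0.37. Shorter ones transcribed by the same RNA polymerase III stood higher, with Rny1 at 2.004, Rny3 at 1.66 and Vaultrc5 at 1.62. The methods of the study state RNA integrity as a range over all samples and not for each library, and its part in this difference was not tested.

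C/D snoRNAs guide methylation of ribosomal RNA, and 56 of 74, classed by name, were up-regulated, with a median of 1.49. Of 11 kept snoRNAs outside the C/D and H/ACA name classes, Rnu3a among them, 2 were up-regulated (median 0.65). Of 9 small Cajal body RNAs 2 were up-regulated (median 0.53). Snord22 had 5996, 3025, 3212 and 6613 counts (2.13, 2.07 to 2.19), Snord33 379, 170, 157 and 664 (3.17, 2.92 to 3.43) and Snord68 609, 219, 286 and 967 (2.85, 2.66 to 3.04). Snord118, the U8 RNA of ribosomal RNA processing, rose by 1.67 (1.60 to 1.75), and Snord17, at 221 bases the longest kept C/D snoRNA, had 0.88 (0.81 to 0.94) and was not called. H/ACA snoRNAs guide pseudouridylation, and 30 of 35 were up-regulated (median 1.67), with Snora47 (2.49, 2.16 to 2.83) and Snora61 (2.32, 2.18 to 2.46) in front and Snora73a (0.91, 0.86 to 0.97) not called. The lncRNA hosts that release many snoRNAs from their introns did not rise with them, with 1 of 17 up-regulated and a median of -0.08. The one called was Gas5 (1.06, 1.02 to 1.10), while Snhg1 was at -0.08 and Snhg3 at -0.13. The 13 snoRNP proteins had no call, with Fbl, the methyltransferase, at -0.07 and Nop56 at -0.15.

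Nuclear tRNAs were up-regulated in 194 of 258 members with none down-regulated (median 1.38), and 255 of 258 values were above 0. By amino acid, as the names in the files give it, medians ran from 1.09 for valine (8 of 15 up-regulated) to 1.84 for proline (13 of 14) and 1.83 for glycine (14 of 18), apart from the single selenocysteine tRNA at -0.10. The most counted, n-Te21 of glutamate, had 8072, 5830, 4281 and 4420 counts (1.14, 1.08 to 1.20), and n-Tp9 of proline had 2944, 1735, 1400 and 3297 (2.33, 2.24 to 2.42). tRNA copies are near-identical, so reads may be split among them. Mitochondrial tRNAs were up-regulated in 4 of 19 (median 0.82), with TrnV at 1.58 (1.45 to 1.71) and TrnL1 at 0.505 (0.39 to 0.62). The RNA polymerase III and tRNA processing genes had no call among 26 members (median -0.07), with Polr3a at -0.04. Spliceosomal snRNAs rose in 8 of 11, with Rnu5g at 2.07 (2.01 to 2.13) and Rnu12 of the minor spliceosome at 1.43 (1.39 to 1.48).

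**Figure D5:**
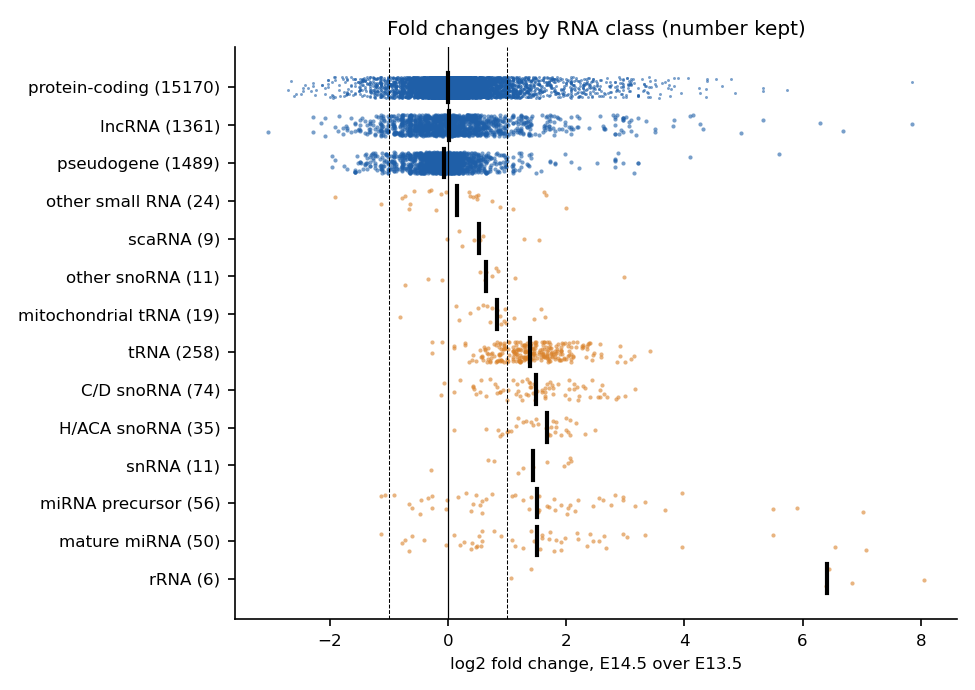
Log2 fold change of every kept feature (points) by RNA class, leaving out the 778 kept features without one, with the class median as a black bar. Protein-coding genes, lncRNAs and pseudogenes are centred near 0, tRNAs, C/D and H/ACA snoRNAs, snRNAs and miRNAs have medians between 1.38 and 1.67, and the 6 ribosomal RNAs have a median of 6.42.

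Among long noncoding RNAs 123 of 1361 were up-regulated and 37 down-regulated, with a median of 0.01. Neat1, the scaffold of paraspeckles, had 504, 625, 1353 and 288 counts (-1.14, -1.33 to -0.96) and was the one call among 11 nuclear lncRNAs. Malat1, its genomic neighbour, had 293790 and 130374 counts (-0.08, -0.09 to -0.07). Of 24 imprinted genes 2 were down-regulated, Phlda2 from 464 to 53 counts (-2.04, -2.48 to -1.63) and Ascl2 from 61 to 11 (-1.37, -2.46 to -0.44). Both lie in the cluster controlled by Kcnq1ot1, the noncoding RNA that silences it on the paternal chromosome, and Kcnq1ot1 itself had 18713 and 5649 counts (-0.64, -0.68 to -0.59). Nnat was up-regulated, with 7446, 2828, 2909 and 6051 counts from E11.5 to E14.5 (2.15, 2.08 to 2.21). H19 and Igf2 stood at -0.23 and -0.21. Of 31 kept Hox genes 3 were up-regulated, Hoxa4 (1.95, 1.35 to 2.57), Hoxa13 (2.28, 1.34 to 3.30) and Hoxc12 (2.53, 2.35 to 2.71), each with more counts at E11.5 than at E13.5. The 31 kept Hox genes in sum were also higher at E11.5, with 1201 scaled CPM against 447 at E13.5.

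The 15 largest falls with at least 100 counts were smaller than the rises, from -2.45 to -1.77. Beside Rhox6, Rhox9, Tfap2c, Foxh1, Hbb-y and Phlda2 they held 1700019D03Rik, with 66, 184, 188 and 16 counts (-2.45, -3.30 to -1.73), and Calcoco2, an autophagy receptor, with 11, 56, 141 and 15 (-2.13, -3.02 to -1.37). Both were above 100 counts at E13.5 and at most 16 at E14.5. The cartilage collagens Col2a1 and Col9a1 went from 179 to 22 (-1.93, -2.64 to -1.29) and from 133 to 16 counts (-1.95, -2.81 to -1.21), continuing a fall from 1502 and 506 counts at E11.5. Ereg, an EGF receptor ligand, went from 733 to 101 (-1.77, -2.08 to -1.47), Scrt2, a neural repressor, from 225 to 22 (-2.26, -2.97 to -1.63), and Tbx4, a limb and lung transcription factor, from 337 to 46 (-1.78, -2.26 to -1.33). Dennd1c (-2.04, -2.89 to -1.30) and Prkg2, a cGMP-dependent kinase (180 and 21 counts), complete the set. These 15 had between 133 and 19013 counts at E13.5.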

How the data were processed

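Per the methods of the study, at least 6 XX and 6 XY gonads from 2 litters were pooled per library, and 1 μg of Trizol-extracted RNA was depleted of ribosomal RNA with RNase H, tailed and sequenced with UMIs (SEQuoia Complete Stranded kit). The authors mapped reads to mm10 with STAR, removed duplicates with UMI-tools and deposited counts per gene from featureCounts, run separately for long RNA and miRNA. The authors also deposited TPM, used here only as an alternative, and RPKM, not used here. The study describes its features as identified from uniquely mapped reads. Tool versions are not given in the sources used here.

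Counts were scaled by TMM (edgeR 4.0.16, R 4.3.3) over features with at least 10 counts in 1 of the 2 libraries. Intervals are exact Clopper-Pearson (scipy 1.17.1), and counts of 3 or fewer were set to 3 for calls and medians. RNA classes came from GENCODE M21, RefSeq and feature names, and sequences from RefSeq (GRCm38.p6). The calculation was tested on simulated data that held counting error only, with changes set in well-counted genes. That simulation could not test variation between libraries or calls at low counts.

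The members and gene lists were chosen with earlier results of these data known. Named genes are the 15 largest rises and falls with at least 100 counts, the first 4 kept members and up to 4 called members of each list, and the most abundant (up to 5) and most changed (up to 3) members of each RNA class. Rec8, Dppa4, miR-2137, miR-202-5p and the miRNAs of the 3 seed groups outside that rule were chosen after their values were seen. Other scalings, filters, prior counts, call rules and, for edgeR's exact test, preset biological coefficients of variation (BCV) were tried. Some members of the lists are counted but their values are not reported here.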

Additional observations from a re-analysis of the deposited data

How the results depend on the processing

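Total counts gave 313 higher and 11385 lower features, and 161 and 9363 protein-coding genes. Without ribosomal RNA in the totals, 537 features and 309 protein-coding genes were lower. At least 10 counts in both libraries left 146 and 101 lower. At least 100 counts in one library left 404 higher and 77 lower, and 183 and 61 protein-coding. A 2-fold change alone gave 479 and 248 lower. With the whole interval past 2-fold, 583 were higher and 43 lower, and 253 and 36 protein-coding. A 4-fold rule left 414 and 32, and 216 and 23. At a preset BCV of 0.1, edgeR's exact test called 113 and 80 lower, at 0.2 it called 472 higher and 31 lower (212 and 27 protein-coding), and at 0.4 it called 31 higher and 0 lower (13 and 0 protein-coding).

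Median of ratios and TMM from protein-coding genes changed the direction of no called gene named in the text. Under total counts the log2 fold changes that turned below 0 were those of Col1a1 -0.0078, Dppa4 -0.034, Gas5 -0.021, Gm1564 -0.0014, Osr1 -0.050 and Sycp1 -0.019, with the median of the piRNA pathway at -0.011. The ratio of the deposited TPM moved the median gene by -1.64 on the log2 scale. It put below 0 Col1a1 -0.57, Cyp21a1 -0.017, Dcn -0.32, Dppa4 -0.59, Eln -0.53, Gas5 -0.58, Gm1564 -0.56, Gm4969 -0.29, Hsd17b1 -0.27, Lox -0.55, Lum -0.10, Mael -0.38, Ogn -0.063, Osr1 -0.61, Piwil1 -0.46, Rnu12 -0.21, Srebf2 -0.050, Sycp1 -0.58, Tdrd1 -0.44, Tex12 -0.048, Tex15 -0.50, TrnV -0.058, Vaultrc5 -0.021 and n-Te21 -0.50. The medians it put below 0 were those of piRNA pathway -0.57, X-linked germline -0.088, C/D snoRNA class -0.15, mature miRNA class -0.13, miRNA precursor class -0.14, snRNA class -0.21 and tRNA class -0.26. No paired analysis was possible because each time point has 1 library. Depth sets 3 counts at 0.0945 scaled CPM at E13.5 and 0.201 at E14.5, so that losses of rare RNAs are harder to see at E14.5.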
